A study of Drosophila melanogaster with 4 samples.

Results

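The RNAs of 9 genes of the small interfering RNA (siRNA) and microRNA (miRNA) pathways, AGO1, AGO2, Dcr-1, Dcr-2, loqs, r2d2, drosha, pasha and gw, were measured in ovarian somatic cells (OSCs), a cultured line of Drosophila somatic ovarian cells. The members were taken by gene symbol, with the transcripts of each gene summed, which gave 9 genes and 29 transcripts among 16580 genes and 35327 transcripts in all. OSCs were grown at 26 °C and transfected with siRNA against EGFP, the control (siGFP), or against piwi (sipiwi), Mi-2 (called siMi-2) or Rpd3 (called siRpd3), and RNA was collected at 4 days. Each condition had 1 library of poly(A) RNA, 4 libraries in all, so that no spread between cultures can be given and a value and its interval compare libraries, not conditions. All 4 libraries, the control included, came from cells that had received an siRNA, so the effect of transfection itself on the RNAs of these pathways was not measured.

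In flies, primary miRNA transcripts are cut in the nucleus by Drosha with its double-stranded RNA-binding partner Pasha, and the released hairpins are cut again in the cytoplasm by Dicer-1 with Loquacious. The mature miRNA is loaded onto Argonaute 1, which silences its targets through the effector protein GW182, encoded by gw. Long double-stranded RNA is instead cut by Dicer-2, which with its partner R2D2 loads siRNAs onto the slicing enzyme Argonaute 2, and the same loading pathway takes up the siRNA duplexes used for knockdown. The piRNA pathway, which silences transposable elements in OSCs through the nuclear Argonaute Piwi and which the knockdowns addressed, needs neither Drosha nor the Dicers.

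Levels are given as FPKM, read counts scaled to transcript length and to the mapped reads of the library, as the authors deposited them. Libraries held 32638866 to 38060116 mapped reads, and 3 reads, the most that a count of 0 allows, equal 0.0263 to 0.0306 FPKM on a transcript of 3000 nt. A ratio is log2((FPKM + 0.1)/(FPKM in siGFP + 0.1)), and its 95% interval is an exact Clopper-Pearson interval of the share of recovered reads. PCR reads are not independent molecules, so that these intervals cover counting error only. Of the targeted genes, piwi RNA was listed at 73.5 FPKM in siGFP and 38.9 FPKM in sipiwi, and Mi-2 RNA at 34.4 FPKM in siGFP and 5.67 FPKM in siMi-2. The RNA of Rpd3 was at 71.3 FPKM in siGFP and at 104 FPKM in its own knockdown. That sample is therefore called the library labelled siRpd3. Within these RNA data, directions drawn from it rest on the label alone. Scaled to the median gene, Rpd3 came to -0.16 on the log2 scale, and against the 200 genes nearest in length to -0.29. The paper reports a check of RNAi efficiency in OSCs that included a western blot of Rpd3 protein. It does not say that the sequenced cells were the ones blotted. The somatic markers tj, zfh1, Fas3 and fs(1)Yb were detected in every library, as was RNA of some of the 7 germline markers, with bam at 2.24 to 4.95 FPKM and bgcn at 1.83 to 2.17 FPKM, while nos and osk lay under 0.2 FPKM in each. The median gene, over 7814 genes with a mean of at least 1 FPKM, was shifted by 0.29 with sipiwi, 0.12 with siMi-2 and 0.71 in the siRpd3-labelled library on the log2 scale, so ratios are also given relative to it.

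All 9 members passed the minimum of 1 FPKM. Their transcripts took 16759 reads in siGFP, 18782 with sipiwi, 17288 with siMi-2 and 30361 in the siRpd3-labelled library, which is 0.0457%, 0.0493%, 0.0478% and 0.0930% of the mapped reads. In siGFP the order of levels ran from r2d2 at 60.0 FPKM through AGO2, Dcr-2, loqs, drosha, gw, pasha and AGO1 down to Dcr-1 at 1.75 FPKM. The siGFP intervals of Dcr-2 and loqs overlapped, as did those of drosha and gw and those of pasha and AGO1. The siRNA-pathway genes r2d2, AGO2 and Dcr-2 thus held the highest ranks in siGFP. The pair r2d2 and AGO2 held the highest 2 ranks in every library, with overlapping intervals in siMi-2 and with AGO2 above r2d2 in the library labelled siRpd3. At the other end stood Dcr-1 in siGFP and siMi-2 and AGO1 in sipiwi and the library labelled siRpd3.

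**Figure D1:**
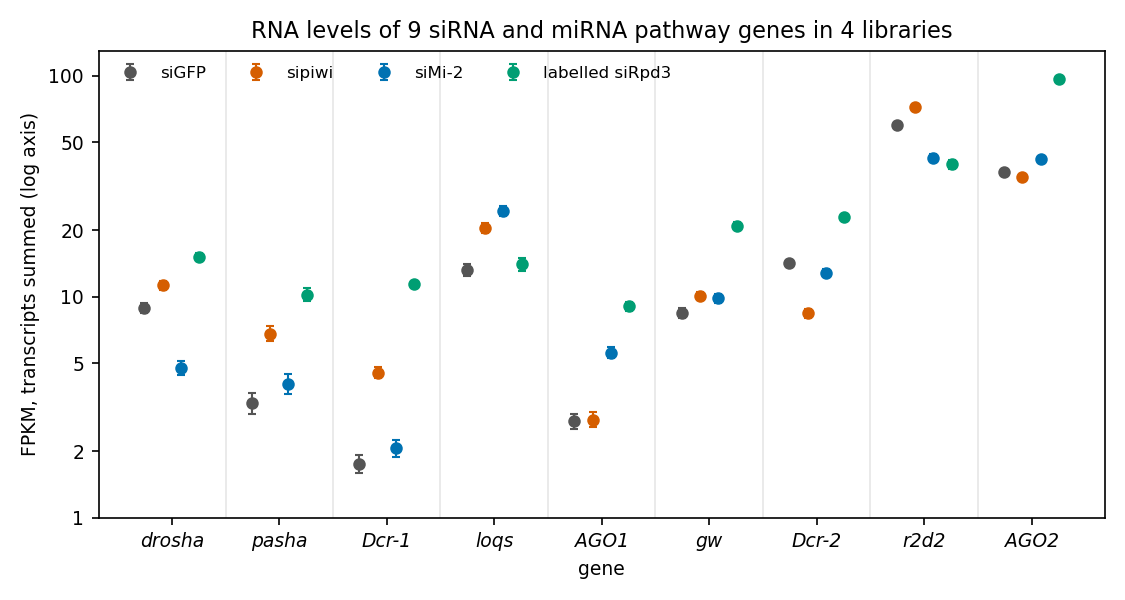
FPKM of the 9 genes (log axis, transcripts summed) in the 4 libraries, 1 library per condition, with points for the level and bars for the 95% interval of counting error. The genes are ordered from the nuclear step of miRNA biogenesis on the left to AGO2 on the right, and levels run from 1.75 FPKM for Dcr-1 in siGFP to 97.0 FPKM for AGO2 in the library labelled siRpd3.

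Drosha, the nuclear RNase III enzyme, is encoded by a single listed transcript of 4290 nt (dm6, 2R:7932429-7936840, plus strand, 3 exons). Its level was 8.91 FPKM in siGFP, 11.3 FPKM in sipiwi, 4.77 FPKM in siMi-2 and 15.1 FPKM in the library labelled siRpd3. No intervals overlapped, and siMi-2 was the lowest library and the library labelled siRpd3 the highest. In bulk RNA such as this, fewer cells of a type and less RNA per cell cannot be told apart. In siMi-2 the log2 ratio was -0.89 (interval -1.01 to -0.76), lower than in all but 4.61% of the genes compared, and it was -1.01 relative to the median gene. Pasha, its partner, is encoded on chromosome 3R (31617977-31622217, plus strand) in 3 transcripts of 2123 to 2847 nt. Its level was 3.30 FPKM in siGFP, 6.81 FPKM in sipiwi, 4.05 FPKM in siMi-2 and 10.2 FPKM in the library labelled siRpd3. The siGFP and siMi-2 intervals overlapped, and pasha was higher in the other libraries, with log2 ratios of 1.02 (0.83 to 1.22) in sipiwi and 1.60 (1.41 to 1.79) in the library labelled siRpd3. Relative to the median gene these were 0.74 and 0.89, both under 2-fold. In siMi-2 the subunits thus stood on opposite sides of siGFP on the deposited scale, drosha below it and pasha at 0.29 (0.07 to 0.50). Relative to the median gene pasha was at 0.17 there, and the intervals of its levels overlapped as given above.

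Dicer-1, which cuts miRNA precursors, is encoded by a single listed transcript of 6913 nt (3R:22734007-22741091, minus strand, 4 exons). The Dcr-1 level was 1.75 FPKM in siGFP, 4.54 FPKM in sipiwi, 2.07 FPKM in siMi-2 and 11.4 FPKM in the library labelled siRpd3. It varied most of the 9 members, 6.51-fold from the lowest library to the highest, and siGFP and siMi-2 overlapped at the low end. The log2 ratio was 1.33 (1.17 to 1.48) in sipiwi, higher than in 95.2% of genes, and 2.64 (2.49 to 2.78) in the library labelled siRpd3, higher than in 92.9% of genes. Loquacious, a double-stranded RNA-binding protein with isoforms that partner Dicer-1 or Dicer-2, is encoded on 2L (13382652-13385671, plus strand). Its level was 13.2 FPKM in siGFP, 20.5 FPKM in sipiwi, 24.5 FPKM in siMi-2 and 14.1 FPKM in the library labelled siRpd3. The loqs level was highest in siMi-2, at a log2 ratio of 0.89 (0.77 to 1.01), and the library labelled siRpd3 overlapped siGFP. It was the only member highest in siMi-2 among these libraries.

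Argonaute 1, the main miRNA-binding Argonaute, is encoded on 2R (13943387-13958089, minus strand) in 4 transcripts of 3481 to 7888 nt. The AGO1 level was 2.73 FPKM in siGFP, 2.79 FPKM in sipiwi, 5.59 FPKM in siMi-2 and 9.07 FPKM in the library labelled siRpd3. The siGFP and sipiwi intervals overlapped, and both other libraries lay above them. Log2 ratios were 0.03 (-0.12 to 0.18) in sipiwi, 1.01 (0.87 to 1.14) in siMi-2 and 1.70 (1.57 to 1.83) in the library labelled siRpd3. GW182, which recruits deadenylases and decapping factors to AGO1 targets, is encoded by gw on chromosome 4 (649041-660608, minus strand). Its level was 8.46 FPKM in siGFP, 10.1 FPKM in sipiwi, 9.84 FPKM in siMi-2 and 21.0 FPKM in the library labelled siRpd3. The gw level in sipiwi and siMi-2 overlapped, and the library labelled siRpd3 stood above the others at a log2 ratio of 1.30 (1.22 to 1.39).

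Dicer-2, the siRNA-producing Dicer, is encoded on 2R (17574979-17581525, minus strand) by transcripts of 5681 and 5684 nt. The Dcr-2 level was 14.2 FPKM in siGFP, 8.42 FPKM in sipiwi, 12.9 FPKM in siMi-2 and 22.9 FPKM in the library labelled siRpd3. No intervals overlapped, and sipiwi was the lowest library, at a log2 ratio of -0.75 (-0.83 to -0.66), lower than in all but 4.39% of genes and -1.04 relative to the median gene. R2D2, the partner of Dicer-2 in loading AGO2, is encoded on 2L (7800147-7802098, plus strand) in 3 transcripts of 1121 to 1785 nt. The r2d2 level was 60.0 FPKM in siGFP, 72.7 FPKM in sipiwi, 42.4 FPKM in siMi-2 and 39.9 FPKM in the library labelled siRpd3. It was the only member lowest in the library labelled siRpd3, where it overlapped siMi-2, and its range of 1.82-fold was the smallest of the 9. Log2 ratios were 0.28 (0.21 to 0.34), -0.50 (-0.58 to -0.42) and -0.59 (-0.67 to -0.50) in the same order. Relative to the median gene, r2d2 was at -0.012, -0.62 and -1.30, while scaling to the ribosomal protein gene RpL32 turned its direction in the library labelled siRpd3, to 0.68. Argonaute 2, the slicer of the siRNA pathway, is encoded on 3L (15554113-15561042, plus strand) in 3 transcripts of 3784 to 4117 nt. The AGO2 level was 36.6 FPKM in siGFP, 35.0 FPKM in sipiwi, 42.0 FPKM in siMi-2 and 97.0 FPKM in the library labelled siRpd3. The first 2 of these overlapped, siMi-2 lay slightly above them, and the library labelled siRpd3 stood apart at a log2 ratio of 1.40 (1.36 to 1.45).

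Compared with siGFP, 2 of 9 members were more than 2-fold higher in sipiwi (pasha and Dcr-1), against 11.4% of the genes compared. In siMi-2, 1 member was (AGO1), against 15.5% of genes. In the library labelled siRpd3, 5 members were (pasha, Dcr-1, AGO1, gw and AGO2), against 41.3% of genes. No member was below 0.5-fold in any library, against 2.59%, 3.49% and 7.06% of genes in the same order. The interval of the ratio lay wholly above 2-fold for Dcr-1 in sipiwi, for no member in siMi-2 and for all 5 members in the library labelled siRpd3. After scaling to the median gene, the members past 2-fold were Dcr-1 higher and Dcr-2 lower in sipiwi (5.31% and 4.80% of genes), drosha lower in siMi-2 (4.62%), and Dcr-1 higher and r2d2 lower in the library labelled siRpd3 (23% and 21.7%). The calls in sipiwi and siMi-2 lay close to 2-fold, at log2 values of 1.04 for Dcr-1, -1.04 for Dcr-2 and -1.01 for drosha. No interval was computed on that scale. On that scale no member was more than 2-fold higher in siMi-2, against 13.3% of genes. At 1.5-fold, 3 members were higher in sipiwi (29.9% of genes), 2 in siMi-2 (26.8%) and 7 under the siRpd3 label (53.5%), and 1 was lower in each (6.39%, 10.9% and 14.2%). The shares of members were of the order of the shares of all genes. The median log2 ratio of the 9 members was 0.28 with sipiwi, 0.22 with siMi-2 and 1.30 in the siRpd3-labelled library, which is -0.01, 0.10 and 0.59 relative to the median gene. The 3 comparisons share the siGFP library, in which 5 members and 38.3% of all genes had their lowest level. In the library labelled siRpd3, 7 members and 52.6% of all genes had their highest level.

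**Figure D2:**
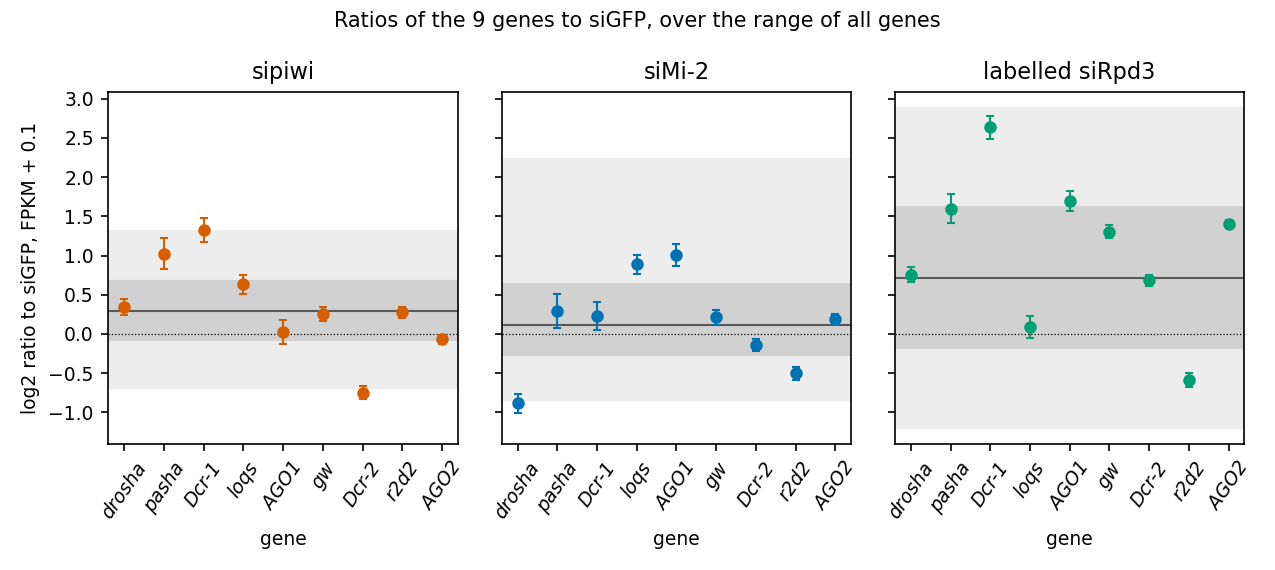
Log2 ratio to siGFP of each of the 9 genes in the 3 other libraries (points, with 95% intervals of counting error), over the ratios of all 7814 genes (line, the median; dark band, the middle 50%; light band, from the 5th to the 95th percentile). Dcr-1 lies at the upper edge of the light band in sipiwi, and Dcr-2 in sipiwi and drosha in siMi-2 lie at or below its lower edge.

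Ratios in the library labelled siRpd3 were higher for longer transcripts across all genes, and most members are long. The 200 genes nearest in length to a member had a median log2 ratio between 0.10 (r2d2, 1121 nt) and 2.07 (Dcr-1, 6913 nt) in that library, between 0.18 and 0.74 in sipiwi and between -0.0038 and 0.45 in siMi-2. Relative to these genes, 7 of 9 members lay lower in the library labelled siRpd3, and pasha (0.45) and Dcr-1 (0.56) lay above. AGO1, gw and AGO2, called higher on the deposited scale, then stood at -0.22, -0.75 and -0.13. No member was more than 2-fold higher on this scale in any library, against 4.54%, 13.2% and 18% of genes. Members below 0.5-fold were Dcr-2 in sipiwi (-1.44) and drosha in siMi-2 (-1.10), and Dcr-2 again in the library labelled siRpd3 (-1.28). The shares of all genes below 0.5-fold were 5.37%, 4.70% and 15.8%. What sets the relation with length in that library was not tested, and it cannot be told apart from the siRNA with 1 library. Gene length was taken as that of the most highly expressed transcript. It was the shortest for r2d2 (1121 nt, range 1121 to 1785 nt) and loqs (1334 nt, range 1334 to 2147 nt). For gw it was the longest, inferred (6807 nt, range 4675 to 6807 nt). The values of these genes relative to genes of like length depend on that choice, and no other was tried.

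**Figure D3:**
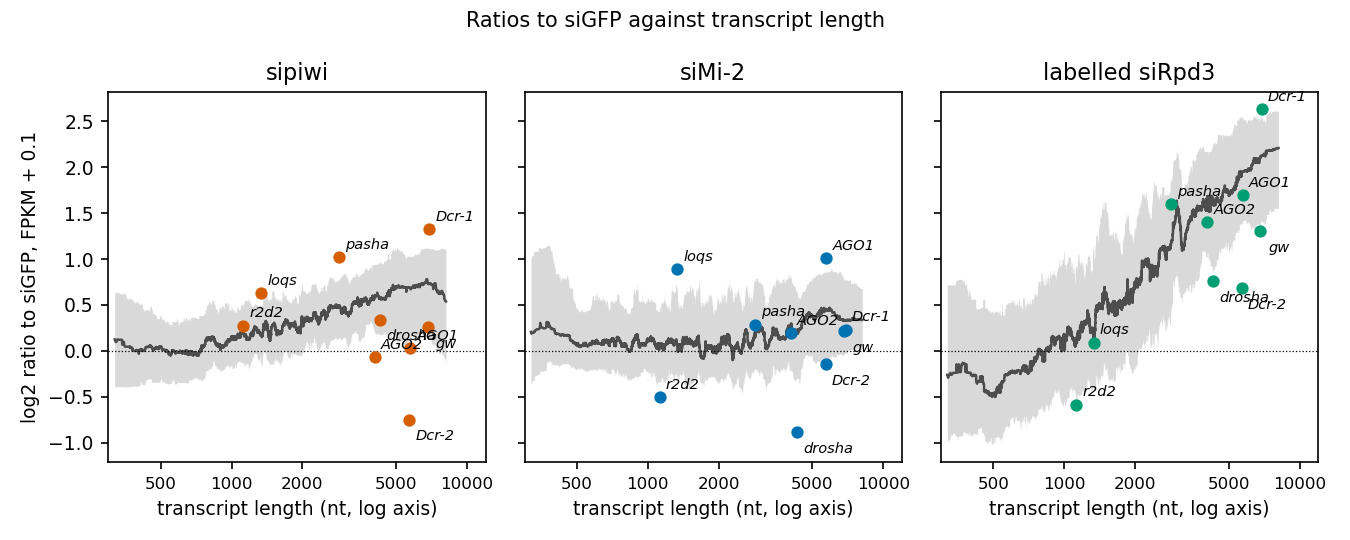
Log2 ratio to siGFP of the 9 genes against the length of their most highly expressed transcript in nt (log axis), over the running median (line) and middle 50% (band) of all genes. In the library labelled siRpd3 the median rises with length, where Dcr-2 at 0.68, drosha at 0.76, r2d2 at -0.59 and gw at 1.30 lie below the band and Dcr-1 at 2.64 above it.

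A ratio of 2 genes within a library does not move with the scaling of that library, and it was compared for the paralogs and partners. AGO2 exceeded AGO1 in every library, by 13.4-fold in siGFP, 12.6-fold in sipiwi, 7.51-fold in siMi-2 and 10.7-fold in the library labelled siRpd3. The difference between them was thus smallest in siMi-2. Dcr-2 exceeded Dcr-1 by 8.13-fold in siGFP, 1.85-fold in sipiwi, 6.22-fold in siMi-2 and 2.01-fold in the library labelled siRpd3. This pair moved most, over a range of 2.08 on the log2 scale. With only the top transcript of each gene, the log2 ratio of Dcr-1 to Dcr-2 turned to 0.11 in sipiwi and came to -0.11 under the siRpd3 label. In sipiwi the Dicers stood on opposite sides of siGFP, Dcr-1 higher and Dcr-2 lower, and in the library labelled siRpd3 both were higher on the deposited scale, Dcr-1 by more, with Dcr-2 at -0.026 relative to the median gene and -1.28 relative to genes of like length. The r2d2 RNA exceeded loqs by 4.54-fold in siGFP, 3.54-fold in sipiwi, 1.73-fold in siMi-2 and 2.84-fold in the library labelled siRpd3. The drosha RNA exceeded pasha by 2.70-fold in siGFP, 1.66-fold in sipiwi, 1.18-fold in siMi-2 and 1.48-fold in the library labelled siRpd3. For all 4 pairs the ratio was farthest from equal in siGFP, although for AGO1 to AGO2 the siGFP and sipiwi intervals overlapped. The genes of a pair differ in length, and genes of like length had median log2 ratios, in the library labelled siRpd3, of 2.07 and 1.96 for Dcr-1 and Dcr-2, 1.91 and 1.53 for AGO1 and AGO2, 1.67 and 1.15 for drosha and pasha, and 0.16 and 0.10 for loqs and r2d2.

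**Figure D4:**
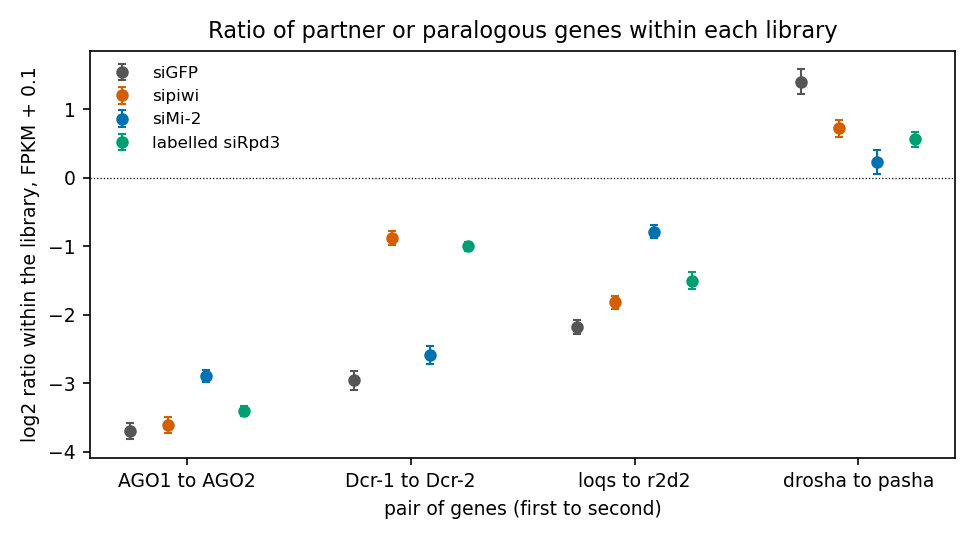
Log2 ratio of FPKM + 0.1 of the first to the second gene of 4 pairs within each library, with 95% intervals of counting error. The ratio of Dcr-1 to Dcr-2 was -2.95 in siGFP and -2.58 in siMi-2 but -0.88 in sipiwi and -0.999 in the library labelled siRpd3.

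Reads common to several transcripts of a gene are placed on any of them by the aligner, so levels of single transcripts are partly shared. Of the 29 transcripts, 26 matched an annotated transcript by exact length, which gave their names. The lengths and reads of the other 3 (2 of gw and 1 of r2d2) are inferred, as the smallest length that gave whole reads in all libraries. The AGO1 transcripts differ mainly in the 3′ untranslated region, which is 4585 nt in AGO1-RD, 4225 nt in AGO1-RC, 2563 nt in AGO1-RB and 435 nt in AGO1-RA. AGO1-RD, the longest, took 37.0% of AGO1 reads in siGFP, 34.3% with sipiwi, 35.2% with siMi-2 and 27.3% in the siRpd3-labelled library. In that library its share was the lowest and its interval overlapped no other. The AGO1 transcripts ordered by length there, AGO1-RD 1.12, AGO1-RC 1.56, AGO1-RB 1.80 and AGO1-RA 1.91, so that the longest had the lowest log2 ratio. This ran against the relation with length across genes. Over 721 genes with transcripts differing at least 1.5-fold in length, the longest minus the shortest had a median log2 difference of -0.03, and the AGO1 difference of -0.79 was lower than in all but 3.19% of them.

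The longest of 6 gw transcripts, 6807 nt by that inference, took 30.0% of gw reads in siGFP, 31.2% with sipiwi, 41.3% with siMi-2 and 20.2% in the siRpd3-labelled library. The first 2 of these shares overlapped, siMi-2 was higher and the library labelled siRpd3 lower. In siMi-2 this transcript was at a log2 ratio of 0.71 (0.55 to 0.87) and the other 5 summed were at 0.02. In the library labelled siRpd3 it was at 0.67 (0.51 to 0.84) and the other 5 at 1.44. As the reads were placed, the gw difference in siMi-2 thus lay mainly in the longest transcript. The other 5 ran from -0.11 to 0.28, the latter for gw-RF (0.02 to 0.54). The difference to locate was small, with gw as a whole at 0.10 relative to the median gene. For loqs, loqs-RD, whose 359-residue product is the isoform known to act with Dicer-2, took 16.7% of reads in siGFP, 18.7% with sipiwi, 16.8% with siMi-2 and 15.7% in the siRpd3-labelled library. All loqs-RD intervals overlapped that of siGFP, and in siMi-2 all 6 loqs transcripts were higher than in siGFP, between 0.66 and 1.08. The longest r2d2 transcript (1785 nt, also inferred) took 41.8% of r2d2 reads in siGFP and between 34.8% and 36.7% in the others. The transcripts of Dcr-2 and of AGO2 had log2 ratios within 0.16 of each other in each library.

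**Figure D5:**
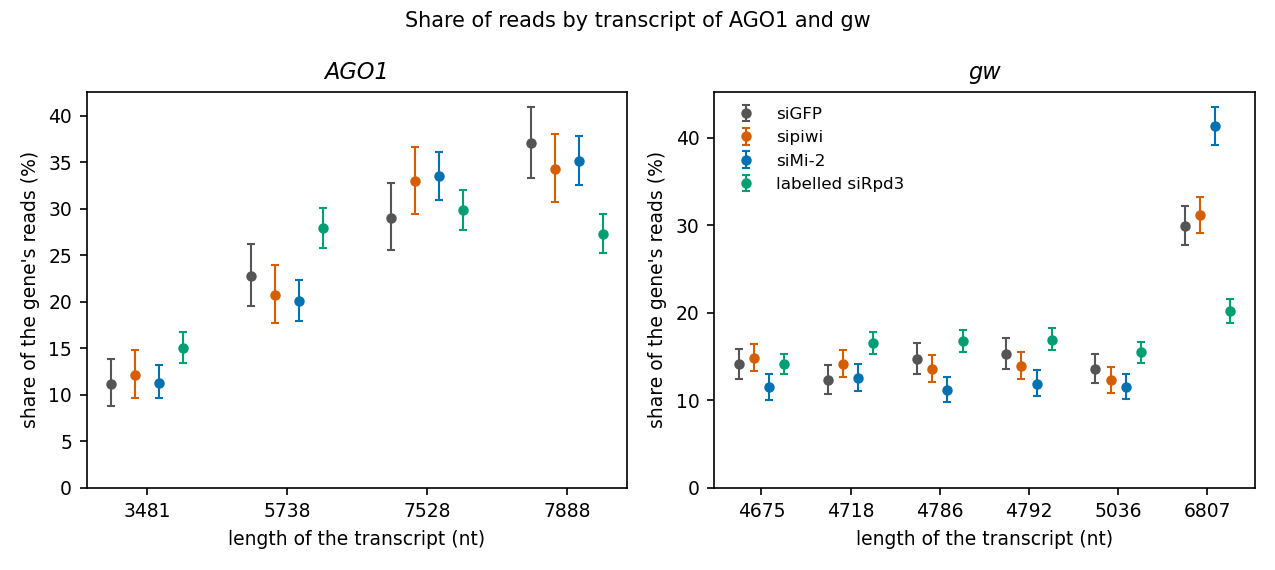
Share of the reads of AGO1 (left) and gw (right) placed on each of their transcripts, named by length in nt, in the 4 libraries with exact 95% binomial intervals. The longest transcript of each gene had its lowest share in the library labelled siRpd3, 27.3% for AGO1 and 20.2% for gw, and the longest gw transcript its highest share in siMi-2, 41.3%.

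The kit is not stated to mark strand, so reads in bases shared with a gene on the opposite strand cannot be assigned. Such bases number 431 for r2d2 (Cdc14), 420 for loqs (asRNA:CR44599), 317 for AGO2 (CG7739), 196 and 33 for AGO1 (CG33155 and mRpL53) and 1 for Dcr-2 (Rab4), and pasha shares 82 with kek6 on the same strand. The log2 ratio of asRNA:CR44599, from 3.04 FPKM in siGFP, was 1.31 in siMi-2, the library in which loqs was highest. Cdc14 was at 1.39 FPKM in siGFP and 9.04 FPKM in the library labelled siRpd3, where r2d2 was lowest. CG33155, at 123 FPKM in siGFP, was lower than siGFP in each other library (-0.36, -0.63 and -0.24), while AGO1 was not. The part of these neighbours in the members' values was not tested.

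Genes known to work with these pathways were taken as 3 lists. Of 14 loading and biogenesis cofactors past the minimum, out of 15, 2 were more than 2-fold higher with sipiwi, 0 with siMi-2 and 6 in the siRpd3-labelled library, beside 11.4%, 15.5% and 41.3% of all genes, and none was lower. Their median log2 ratios were 0.40, -0.04 and 0.67, beside 0.29, 0.12 and 0.71 for all genes. Cbp80, the large subunit of the nuclear cap-binding complex, was at 8.22 FPKM in siGFP and 17.0, 10.4 and 50.8 FPKM in sipiwi, siMi-2 and the library labelled siRpd3, and Ars2, its partner in miRNA processing, at 5.79, 7.41, 8.46 and 27.0 FPKM. Both were highest in the library labelled siRpd3. Ranbp21, the fly Exportin-5, had its highest level in sipiwi (10.2 FPKM in siGFP and 23.2 FPKM in sipiwi). Hsp83, the Hsp90 chaperone that assists loading of Argonautes, was at 940 FPKM in siGFP, 1303 FPKM in sipiwi, 912 FPKM in siMi-2 and 3350 FPKM in the library labelled siRpd3. Cbp20 and p23 had the lowest ratios in the library labelled siRpd3 (-0.61 and -0.32), Nbr, the exonuclease that trims miRNAs, and p23 the lowest in siMi-2 (-0.59 and -0.46), and Cbp20 and Nbr the lowest in sipiwi (-0.12 and 0.04). Hen1, the small RNA methyltransferase, and Ars2 had the highest in siMi-2 (0.85 and 0.54).

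Of 6 genes of proteins reported to associate with silencing complexes, with mei-P26 under the minimum, 1 was more than 2-fold higher with sipiwi, 0 with siMi-2 and 4 in the siRpd3-labelled library, against the same shares of all genes. Their medians were 0.51, 0.16 and 1.58, and relative to genes of like length 0.11, 0.04 and 0.22. The helicase gene bel was at a log2 ratio of 1.44 in sipiwi and 0.45 in siMi-2, and Fmr1, the fragile X homolog, at 0.99 in sipiwi and 2.05 in the library labelled siRpd3. The translational repressor brat was at 0.80 in siMi-2 and 2.13 in the siRpd3-labelled library. Rm62, an RNA helicase, had the lowest ratio of the list in each library (0.17, -0.67 and 0.27), with vig (0.36 and 0.81) next in sipiwi and in the library labelled siRpd3 and Tudor-SN (-0.19) next in siMi-2. Of 19 deadenylation, decapping and translational repression factors that act after GW182, 2 were more than 2-fold higher with sipiwi, 2 with siMi-2 and 12 in the siRpd3-labelled library. The shares of all genes were 11.4%, 15.5% and 41.3%. A single factor was below 0.5-fold, in sipiwi, where 2.59% of all genes were. Their medians were 0.51, 0.41 and 1.33, and relative to genes of like length 0.06, 0.15 and -0.05. The decapping scaffold gene Ge-1 was at 1.504 in sipiwi and 2.11 in the library labelled siRpd3, and Rga, a subunit of the CCR4-NOT deadenylase, at 1.18 in sipiwi. DCP2, the decapping enzyme (5.37 FPKM in siGFP and 2.61 FPKM in sipiwi), was at -1.01, and Not1, the CCR4-NOT scaffold, at -0.92. In siMi-2 the highest were Edc3 (1.13) and me31B (1.11), both of the decapping machinery, and the lowest PAN2 (-0.80) and pAbp (-0.31), a deadenylase and the poly(A)-binding protein. In the library labelled siRpd3, Patr-1, a decapping activator, was at 2.13, Not10, a CCR4-NOT subunit, at -0.63 and DCP1, the partner of DCP2, at -0.29. Over the 3 lists, 22 of 39 genes were more than 2-fold higher in the library labelled siRpd3, beside 41.3% of all genes, and the list median relative to genes of like length was 0.18.

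Of the Argonautes outside these pathways, aub, at 0.328 FPKM in siGFP, was at 8.06 FPKM in siMi-2 and 1.98 FPKM in the library labelled siRpd3, while AGO3 lay between 0.51 and 1.04 FPKM in the 4 libraries. The germline marker vas was also highest in siMi-2 (2.66 FPKM, against 0.0243 FPKM or 2 reads in siGFP), as was AGO3. The germline markers did not move as a set. The bam level was highest in sipiwi (4.95 FPKM, against 3.27 FPKM in siMi-2), and bgcn was at 1.89 FPKM in both siGFP and siMi-2. The nos level was 0.117 FPKM in siGFP and 0.0833 FPKM in siMi-2. The summed level of the 7 germline markers, aub and vas among them, was 5.21 FPKM in siGFP, 8.57 FPKM in sipiwi, 17.0 FPKM in siMi-2 and 7.61 FPKM in the library labelled siRpd3, with osk at 0 in siGFP and siMi-2, and their part in the members' values was not tested. The genes whose 3 ratios lay nearest to the members' medians were hrg, bs and CG32066 of 7805 genes compared, at distances of 0.0600, 0.0760 and 0.0883 on the log2 scale.

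The small RNAs themselves were not measured, since the libraries were made from poly(A) RNA, but the table lists 237 miRNA genes. Of these, 17 had a read in any library, and the rows together held 37 reads in siGFP, 46 with sipiwi, 22 with siMi-2 and 24 in the siRpd3-labelled library. The row with most reads, mir-989, had 14, 12, 8 and 4 reads in the same order. It was followed by mir-3645 with 10, 6, 5 and 5 reads and by mir-33 with 5, 9, 6 and 4 reads. The mir-124 row had 12 reads in sipiwi and 0 in the other libraries, each of which allows up to 3 reads. The mir-986 row had 1, 0, 0 and 4 reads, and the only hairpin RNA gene listed, hpRNA:CR46343, had 2 reads, in siMi-2. At this depth, differences in miRNA gene transcripts between libraries were not detectable for most rows.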

How the data were processed

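Poly(A) RNA of OSCs was sequenced with 1 library per condition, and samples were assigned to conditions by their labels. Per the study's methods and processing notes, the authors aligned reads with Bowtie2 (2.2.4) to dm6 and to a set of transcripts, scaled coverage to library size, and deposited FPKM values per transcript. Columns of all 4 libraries were used. The table of transposable elements was not used here. FPKM values are not counts, and with 1 library per condition no test was run and no p-value is given.

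Transcripts were summed per gene. The steps between FPKM values gave whole reads and the lengths of transcripts, within a tolerance of 0.02 reads. Of the values above 0 among 3583 intronless genes (1243 to 1392 values per library), between 98.0% and 98.5% came out whole. All 28510 rows above 0 were given a length, an annotated one for 26851 and otherwise the smallest that gave whole reads. No count test was run on these reads. Gene symbols were matched to RefSeq for 99.9% of rows, and positions were taken from Ensembl release 115 (BDGP6, dm6 coordinates). Genes with a mean of at least 1 FPKM were compared, with 0.1 FPKM added before log2, and called above 2-fold or below 0.5-fold. Recovery and ratios were tested on simulated data. The true length was always among the candidates there, so lengths inferred as the smallest were not tested. Python 3.11.15, numpy 2.4.6, pandas 2.3.3 and scipy 1.17.1 were used.

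The members and lists were chosen with earlier results of these data known. Genes named beyond the members were the 2 highest and 2 lowest of each list per library, the 3 nearest to the members' median ratios and the 5 miRNA or hairpin rows with most reads. Hsp83, blanks, the hairpin row, the markers named and the overlapping genes, and the loqs, AGO1, gw and r2d2 transcripts singled out, were chosen after their values were seen. The somatic marker flam was not analysed here, and vas, nos, osk and AGO3 lay under the minimum mean of 1 FPKM. Alternatives were pseudocounts of 0.01 and 1 FPKM, no minimum FPKM, scaling to the median gene or to RpL32, the most highly expressed transcript, reads per mapped read with no division by length, the 200 genes nearest in length and a 1.5-fold threshold.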

Additional observations from a re-analysis of the deposited data

How the results depend on the processing

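Of 216 member ratios under an alternative, 137 stayed within their interval and 20 changed sign. Relative to the 200 genes nearest in length, the calls of AGO1 (-0.22), gw (-0.75) and AGO2 (-0.13) in the library labelled siRpd3 turned negative, as did the median of the 9 members (-0.22). On that scale the medians were -0.23 in sipiwi and -0.11 in siMi-2, and 0 members were more than 2-fold higher and 1 was below 0.5-fold in each library. Scaled to the median gene, the medians were -0.012 in sipiwi and 0.59 in the library labelled siRpd3. The members more than 2-fold higher were then 1 with sipiwi, 0 with siMi-2 and 1 in the siRpd3-labelled library, and 1 was below 0.5-fold in each. RpL32, itself lower in sipiwi (-0.46) and the library labelled siRpd3 (-1.27), put the medians at 0.73 and 2.57, with 0 members higher in siMi-2 and 8 in the siRpd3-labelled library. The same scaling moved the median of all 7814 genes to 0.74 with sipiwi and to 1.96 under the siRpd3 label. The typical gene was thus itself past 2-fold under that label, and the count of 8 is not particular to the members. With a pseudocount of 1 FPKM, 1 member was higher in sipiwi and 0 in siMi-2, where the medians of all genes compared were 0.25 and 0.10. The shares of all genes called were not computed at this pseudocount. The ratios within libraries were then -3.34, -3.25, -2.71 and -3.28 for AGO1 to AGO2 (siGFP, sipiwi, siMi-2, labelled siRpd3), -2.47, -0.77 and -2.18 for Dcr-1 to Dcr-2 (siGFP, sipiwi, siMi-2) and 1.204 for drosha to pasha in siGFP. Taking only the top transcript of a gene divides genes with several transcripts. It gave 1 member higher in sipiwi, 0 in siMi-2 and a median of 0.76 in the library labelled siRpd3. The medians of all genes compared were then 0.28, 0.07 and 0.61 in the same order, and the shares of all genes called were not computed for this setting. Its ratios within libraries were -4.02, -4.03, -3.50 and -3.61 for AGO1 to AGO2, -1.99, 0.11, -1.62 and -0.11 for Dcr-1 to Dcr-2, -2.78, -2.40, -1.56 and -2.32 for loqs to r2d2, and 2.67, 2.03, 1.48 and 1.93 for drosha to pasha, so that Dcr-1 exceeded Dcr-2 in sipiwi under it. At 1.5-fold, 2 members were higher in siMi-2 and 1 was lower in each library. Some counts changed but were classed as within the limits set for a change. Scaling to RpL32 gave 3 members higher in sipiwi (2 in the main setting). The top transcript gave 4 in the library labelled siRpd3 (5 in the main setting). The 1.5-fold threshold gave 3 in sipiwi and 7 under the siRpd3 label, against 29.9% and 53.5% of genes. Other medians also stayed within those limits. No paired analysis was possible because each condition had 1 library. The replicate error was not measured, and counting error is smallest for AGO2 (5298 reads or more) and largest for pasha (309 reads in siGFP).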

Other observations

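Of the cofactors, blanks, which encodes a double-stranded RNA-binding protein known from testis, lay under the minimum of 1 FPKM and entered no comparison. It had 0 reads in siGFP, 122 with sipiwi, 4 with siMi-2 and 20 in the siRpd3-labelled library, on a transcript of 1268 nt. Against a floor of 3 reads in siGFP, its level of 2.53 FPKM in sipiwi was 39.2-fold higher. The counting error of the sipiwi level (2.10 to 3.02 FPKM) is not included in that value. The value rests on 1 library.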
